A study of Homo sapiens with 24 samples.

Results

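The proteasome genes of 2 human ER-negative breast cancer lines were examined across 8 groups of 3 libraries each. Members were all genes whose symbol is PSM followed by a letter from A to G and a number. The count table holds 48 of them among 59609 named genes. They comprise 5 inducible genes, PSMB8, PSMB9, PSMB10, PSME1 and PSME2, and 43 others, here called constitutive. The latter name is used loosely, as these include assembly chaperones and the tissue-specific PSMA8 and PSMB11. MDA-MB-231, a mesenchymal line grown in RPMI medium, and MDA-MB-453, an epithelial one grown in DMEM, were parental cells, labelled Wild-type. Both were treated for 5 days with DMSO, with 500 nM abemaciclib (an inhibitor of the cell cycle kinases CDK4 and CDK6), with 5 nM fulvestrant (a degrader of the oestrogen receptor) or with both drugs, here called the combination. Libraries were 3′ RNA-seq, in which a read marks the end of 1 transcript, so that counts were not scaled by length.

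The proteasome degrades ubiquitin-tagged proteins. Its barrel-shaped core, the 20S particle, is built of alpha rings around beta rings that hold the catalytic sites, and the 19S cap recognises, unfolds and feeds in substrates. In immune cells and after interferon exposure, the catalytic subunits PSMB5, PSMB6 and PSMB7 can be replaced by PSMB8, PSMB9 and PSMB10 in newly assembled cores, forming the immunoproteasome. PSME1 and PSME2 form PA28 alpha-beta, an activator ring that opens the core, is likewise interferon-inducible and shapes the peptides offered to class I antigen presentation. PSME3 forms the related nuclear ring PA28 gamma.

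Libraries held 2873558 to 4158762 counts. Mitochondrial transcripts moved with abemaciclib, with 8.83% ± 0.213 of counts under DMSO and 12.2% ± 1.05 after abemaciclib in MDA-MB-231 (SD, n = 3). The corresponding shares in MDA-MB-453 were 15.2% ± 0.650 and 23.8% ± 1.91. Changes with these counts left out are given in the closing section. Mesenchymal markers summed to at least 1715 CPM (counts scaled to a common library total) in each MDA-MB-231 library and at most 0.696 in any MDA-MB-453 library. The oestrogen receptor gene ESR1 was at 0 in the DMSO libraries of both lines. Among leukocyte markers, CD3E was at 0 in all groups, and the summed list did not pass 16.7 CPM in any library. This list was higher in some abemaciclib and combination libraries of MDA-MB-231 (7.10 to 16.7 and 5.12 to 13.4 CPM) than in DMSO (3.66 to 4.38 CPM), and its part in the results was not tested. In 3 groups 1 library stood apart from its replicates, by the chi-square per gene between pairs of libraries, which was 2.64 to 6.05 in the other 5 groups. These were MDA-MB-231 fulvestrant replicate 1 (8.65 and 7.81 against 2.96 for the remaining pair), MDA-MB-453 abemaciclib replicate 1 (7.67 and 8.18 against 3.76) and MDA-MB-453 fulvestrant replicate 3 (7.31 and 8.39 against 2.97). Results without them are given beside the comparisons they enter. Those counts of called members stand without the share of all genes called in the same setting, so they are not read as results about the members. Bulk counts cannot tell more cells with a transcript from more transcript per cell.

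Abemaciclib split the proteasome genes of MDA-MB-231 in opposite directions. All 4 measurable inducible genes rose, and 30 of 41 constitutive genes fell. In the edgeR quasi-likelihood test within the 12 libraries of the line, 35 of 45 tested members were called at an adjusted p below 0.05, 5 higher and 30 lower, while 33.7% of all 11314 tested genes were called. The median log2 fold change was 1.19 over the inducible genes and -0.50 over the constitutive genes, against -0.00053 over all tested genes.

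PSMB8 encodes the inducible counterpart of PSMB5. It was at 32.9, 33.3 and 34.2 CPM in the DMSO libraries of MDA-MB-231 and at 61.3, 67.8 and 72.1 CPM after abemaciclib. The groups did not overlap, and the log2 fold change was 1.00 ± 0.16 (SE, n = 3 per group, edgeR adjusted p = 1.86e-06). PSMB9, the counterpart of PSMB6, was scarcer. Its DMSO libraries were at 4.88, 1.75 and 8.18 CPM and its abemaciclib libraries at 16.7, 26.1 and 20.3 CPM, again without overlap. The log2 fold change of PSMB9 was 2.09 ± 0.34 (edgeR adjusted p = 3.70e-06), the highest among the members in this comparison, and its DMSO level rested on 6 to 27 counts per library.

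PSME1, encoding the alpha subunit of PA28, was at 92.1, 104 and 96.95 CPM under DMSO and at 235, 270 and 255 CPM after abemaciclib. Every abemaciclib library lay far above the highest DMSO library, and the log2 fold change was 1.38 ± 0.11 (edgeR adjusted p = 5.49e-14). PSME2, the beta subunit, rose less, from 71.3, 73.6 and 73.0 CPM to 105, 104 and 98.4 CPM, with a log2 fold change of 0.50 ± 0.12 (edgeR adjusted p = 0.00107). Its replicates were tightly grouped, with SDs of 1.17 CPM under DMSO and 3.63 CPM under abemaciclib. The fifth member that rose, PSMG4, is an assembly chaperone of the core and no inducible subunit. It was at 22.6, 24.5 and 32.1 CPM under DMSO and at 47.4, 47.4 and 52.9 CPM after abemaciclib (log2 fold change 0.90 ± 0.19, edgeR adjusted p = 0.000171).

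PSMB10, the inducible counterpart of PSMB7, could not be read. It had 0 to 3 counts in every library of both lines and was not tested. In GENCODE v44 the last 500 transcript bases of PSMB10 are covered at 100% by exons of another gene on the same strand, ENSG00000261884. The same annotation covers 96.2% of the last 500 bases of PSMA6, an alpha-ring gene at 0.506 to 7.62 CPM, and 100% of those of PSMA2. How reads shared by overlapping genes were counted is not given in the sources used here, so the levels of these genes are uncertain. PSMA8, the testis form of an alpha subunit, and PSMB11, the thymus-specific catalytic subunit, had 0 counts in all libraries, which allows up to 0.255 to 0.300 CPM in a group (3 counts over the group, counting error only).

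**Figure D1:**
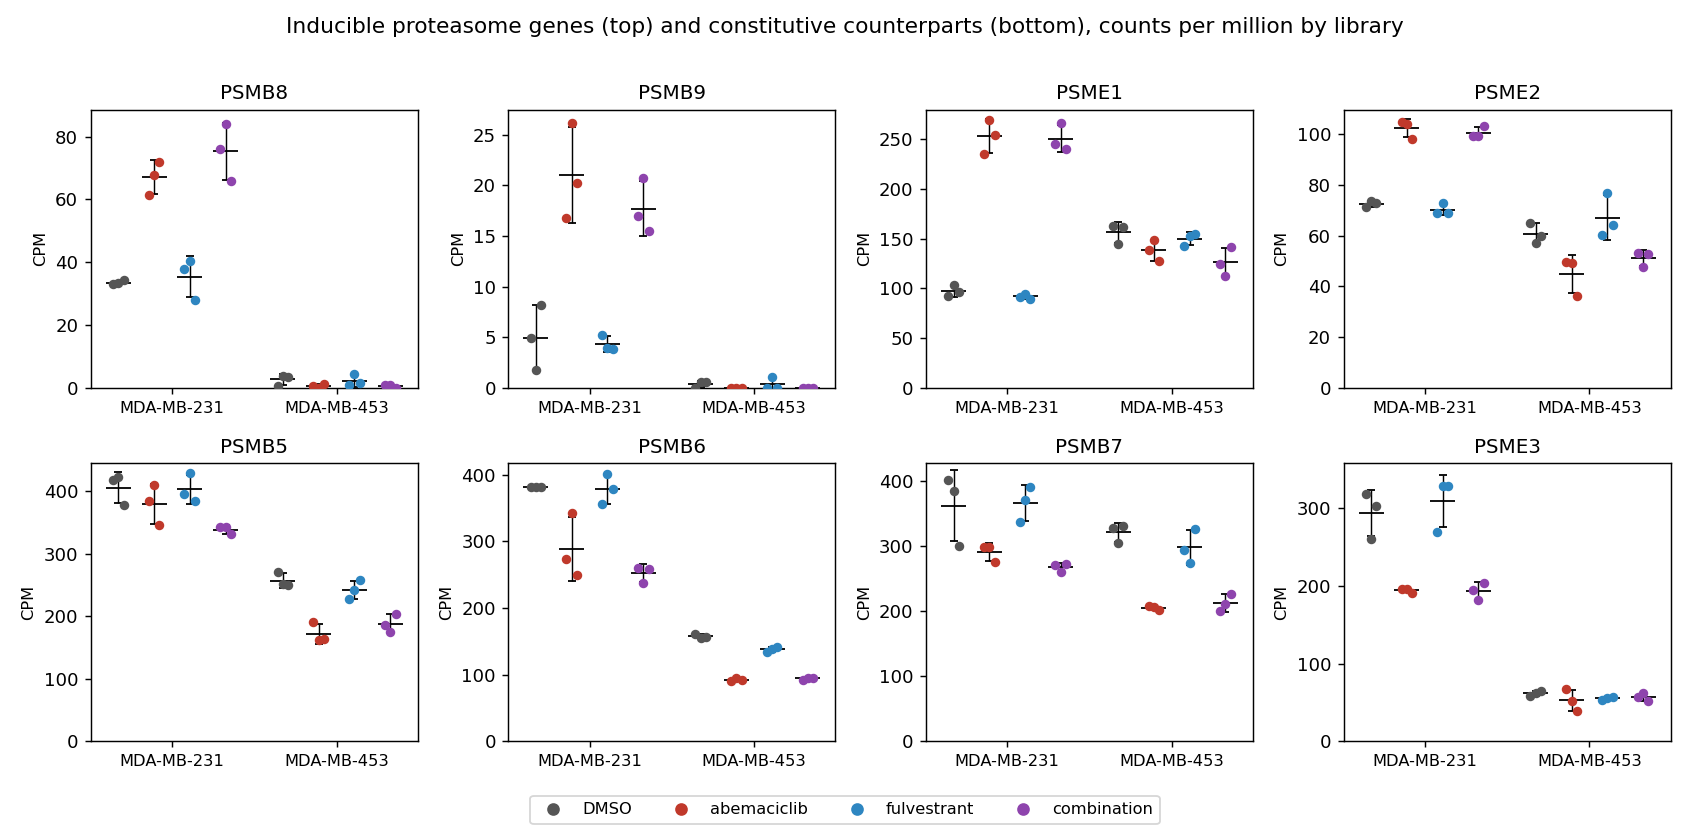
CPM in each library (points), with the mean (line) and SD (bars) of 3 libraries per group, for the inducible genes PSMB8, PSMB9, PSME1 and PSME2 (top) and the constitutive genes PSMB5, PSMB6, PSMB7 and PSME3 (bottom), grouped by line and coloured by treatment. In MDA-MB-231 the 4 upper genes are higher with abemaciclib or the combination, and in MDA-MB-453 PSMB8 and PSMB9 lie near 0 in every group.

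The constitutive counterparts went the other way or did not pass the test. PSMB5, the chymotrypsin-like site, was at 417, 423 and 377 CPM under DMSO and 385, 409 and 346 CPM after abemaciclib, and the groups overlapped (log2 fold change -0.09 ± 0.09, 95% interval -0.28 to 0.09, edgeR adjusted p = 0.465). PSMB6, the caspase-like site, fell from 382, 382 and 381 CPM to 273, 343 and 250 CPM (log2 fold change -0.40 ± 0.10, edgeR adjusted p = 0.00154). PSMB7, the trypsin-like site, was at 401, 384 and 300 CPM under DMSO and 298, 299 and 275 CPM after abemaciclib (log2 fold change -0.31 ± 0.10, edgeR adjusted p = 0.0133). All treated libraries of PSMB7 were below the lowest DMSO library, but the call was lost without DMSO replicate 1 (adjusted p = 0.117), without DMSO replicate 2 (0.0814) or without abemaciclib replicate 3 (0.0555). PSME3 fell from 318, 260 and 303 CPM to 196, 196 and 192 CPM, with no overlap (log2 fold change -0.59 ± 0.10, edgeR adjusted p = 1.09e-05).

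Within each library, these changes shifted the ratio of inducible to constitutive transcripts. On the log2(CPM + 1) scale the ratio of PSMB8 to PSMB5 was higher by 1.07 after abemaciclib than in DMSO in MDA-MB-231 (pooled SD 0.169, n = 3 per group), a 2.11-fold shift. The ratio of PSMB9 to PSMB6 was higher by 2.45 (pooled SD 0.638), that of PSME1 to PSME3 by 1.96 (pooled SD 0.181) and that of PSME2 to PSME3 by 1.08 (pooled SD 0.122). For PSME1 to PSME3 the mean log2 ratio changed sign, from -1.58 in DMSO to 0.378 after abemaciclib (SD 0.234 and 0.104). In MDA-MB-453 the ratio of PSME1 to PSME3 moved by 0.0792 (pooled SD 0.255) and that of PSME2 to PSME3 by -0.178 (pooled SD 0.177), so neither moved beyond about 1 SD. These ratios are descriptions and carry no test.

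Promoter sequences of the 5 genes that rose in MDA-MB-231 are shown because the inducible genes are known interferon targets and because PSMG4 moved with them. Each is the RefSeq window of GRCh38.p14 from 250 bases before to 50 bases after the start site, and 42 of 48 members had such a window. Capitals mark matches on either strand to GAAANNGAA (the core of interferon regulatory factor sites) or TGACNNNGC (the antioxidant response element, the kind of site bound by NRF1 and NRF2). PSMB8 and PSMB9 lie in the class II region of the major histocompatibility complex and are transcribed in opposite directions from separate start sites.
PSMB8, chr6:32844630-32844929, minus strand: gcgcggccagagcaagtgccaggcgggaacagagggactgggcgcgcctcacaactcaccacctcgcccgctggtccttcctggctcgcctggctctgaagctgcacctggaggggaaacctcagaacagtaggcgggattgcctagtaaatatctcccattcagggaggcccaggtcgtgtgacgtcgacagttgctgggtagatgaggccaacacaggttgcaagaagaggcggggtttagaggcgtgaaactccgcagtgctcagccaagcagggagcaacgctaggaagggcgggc
PSMB9, chr6:32853942-32854241, plus strand: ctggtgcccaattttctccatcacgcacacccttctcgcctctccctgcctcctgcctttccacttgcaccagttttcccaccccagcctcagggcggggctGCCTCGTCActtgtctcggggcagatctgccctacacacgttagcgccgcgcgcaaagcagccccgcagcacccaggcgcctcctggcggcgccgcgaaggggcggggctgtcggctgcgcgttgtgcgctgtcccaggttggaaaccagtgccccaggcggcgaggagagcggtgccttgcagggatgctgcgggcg
PSME1, chr14:24135944-24136243, plus strand: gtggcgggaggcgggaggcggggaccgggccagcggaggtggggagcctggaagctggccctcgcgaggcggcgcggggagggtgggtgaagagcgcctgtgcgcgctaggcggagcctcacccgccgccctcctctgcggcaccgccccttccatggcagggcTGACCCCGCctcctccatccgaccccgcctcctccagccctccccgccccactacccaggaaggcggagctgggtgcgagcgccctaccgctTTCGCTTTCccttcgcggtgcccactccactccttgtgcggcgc
PSME2, chr14:24146561-24146860, minus strand: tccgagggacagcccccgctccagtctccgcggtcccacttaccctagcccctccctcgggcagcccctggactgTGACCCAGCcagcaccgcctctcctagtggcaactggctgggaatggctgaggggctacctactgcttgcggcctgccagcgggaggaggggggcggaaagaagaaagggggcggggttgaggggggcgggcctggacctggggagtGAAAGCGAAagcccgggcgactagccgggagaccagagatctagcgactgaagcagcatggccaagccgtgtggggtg
PSMG4, chr6:3258697-3258996, plus strand: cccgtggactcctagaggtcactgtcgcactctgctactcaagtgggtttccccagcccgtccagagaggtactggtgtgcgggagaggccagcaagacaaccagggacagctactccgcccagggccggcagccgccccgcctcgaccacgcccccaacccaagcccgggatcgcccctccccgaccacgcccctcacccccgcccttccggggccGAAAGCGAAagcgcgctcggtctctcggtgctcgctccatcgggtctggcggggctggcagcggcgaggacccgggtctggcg

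The windows of PSME2 and PSMG4 carry the same 9 letters, GAAAGCGAA, at -28 and -33 from the start site (position 1). The PSME1 window has the same 9 letters on the opposite strand at 7, and a TGACNNNGC match at -86. PSME2 has TGACNNNGC at -175 and PSMB9 has it on the opposite strand at -148. No match to either pattern lies in the PSMB8 window. GAAANNGAA occurred in 7 of 42 member windows (16.7%) and in 8.29% of 27305 promoters of the same length, and TGACNNNGC in 13 (31.0%) against 13.6%. The windows with GAAANNGAA include those of PSMA4, PSMB4 and PSMC2, none of which rose in MDA-MB-231, and PSMC2 was called lower. TGACNNNGC likewise lay in windows of genes called lower there, such as PSMC4 and PSMD12. CCAAT, a general promoter box, occurred in 19 member windows (45.2%) against 35.7% of all. A match is a run of letters and not a bound site. PSMB10, which could not be read, has GAAAGCGAA at -21.

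Every 19S cap subunit among the members was called lower in MDA-MB-231, where 33.7% of all tested genes were called in either direction. The cap subunits ADRM1 and SEM1 lie outside the member rule and were counted among the partners. All 6 ATPases, the motor ring that unfolds substrates, fell, with log2 fold changes from -0.99 to -0.37. All 11 non-ATPase subunits, which include the ubiquitin receptor PSMD4 and the deubiquitinase PSMD14, fell too, from -1.18 to -0.42. PSMD11, a lid subunit, fell most: 653, 638 and 655 CPM under DMSO became 268, 254 and 335 CPM after abemaciclib (log2 fold change -1.18 ± 0.10, edgeR adjusted p = 4.65e-13). PSMC1 fell from 268, 303 and 340 CPM to 125, 140 and 195 CPM (log2 fold change -0.99 ± 0.15, edgeR adjusted p = 6.45e-07) and PSMC6, another ATPase, by 0.90 ± 0.13 on the log2 scale (adjusted p = 2.65e-07).

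The 20S core was lowered in part, and its difference from the cap was not tested. The counts by role stand beside 33.7% of all tested genes called in either direction. In the alpha ring, 5 of 7 tested genes fell, with a median log2 fold change of -0.55 over the 7. Of the structural beta genes 2 of 4 fell (median -0.30), and of the catalytic ones 2 of 3 (median -0.31). Among 7 assembly chaperones, PSMG1 fell by 0.87 and PSMG3 by 0.37 on the log2 scale, PSMG4 rose, and the other 4 were not called, with log2 fold changes of -0.73 to -0.01. PSME3 and PSME4, the activator PA200, fell, and the inhibitor PSMF1 was not called (log2 fold change -0.21, 95% interval -0.42 to -0.01). Summed over all 48 members, the share of counts was 1.00% ± 0.00345 under DMSO and 0.717% ± 0.0158 after abemaciclib (SD, n = 3).

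**Figure D2:**
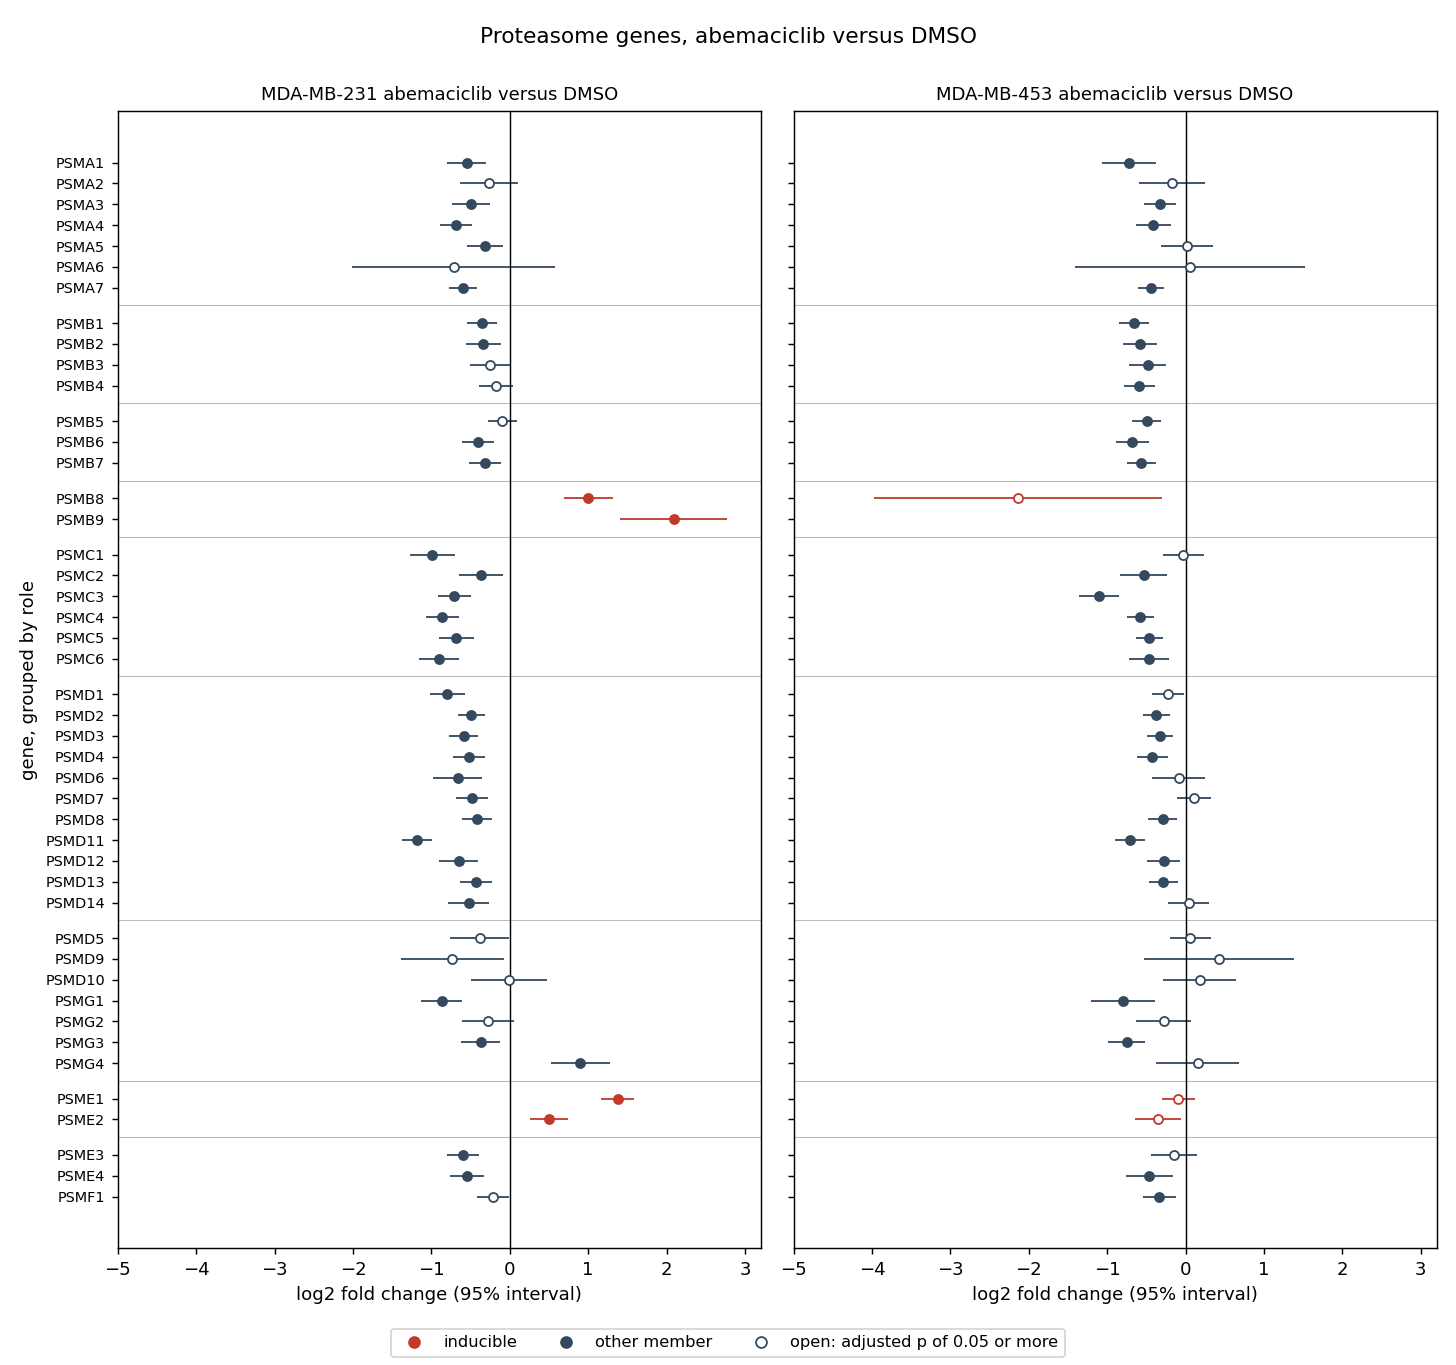
Log2 fold change of each tested proteasome gene with its 95% interval, abemaciclib versus DMSO, in MDA-MB-231 (left) and MDA-MB-453 (right), ordered by role from the alpha ring down to the activators. Filled points have an adjusted p below 0.05; the 4 inducible genes (red) lie right of 0 in MDA-MB-231, where 30 other genes are called left of it, and no called gene of MDA-MB-453 lies right of 0.

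In MDA-MB-453, abemaciclib lowered much of the constitutive proteasome without a rise in any inducible gene. Of 44 tested members, 27 fell and 0 rose in the edgeR test within this line's 12 libraries, where 36% of 11080 tested genes were called. DESeq2 likewise called 27 members lower and 0 higher, and without abemaciclib replicate 1, which stood apart, edgeR called the same 27. The median log2 fold change over the constitutive members was -0.37, and over all tested genes -0.0019. The share of counts summed over all members was 0.785% ± 0.0120 under DMSO and 0.557% ± 0.0164 after abemaciclib (SD, n = 3).

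Called members in MDA-MB-453 lay in the core as well as the cap, beside 36% of all tested genes called in either direction. All 4 structural and all 3 catalytic beta genes fell. PSMB5 fell from 270, 250.97 and 250 CPM to 190, 162 and 164 CPM (log2 fold change -0.50 ± 0.09, edgeR adjusted p = 2.95e-05). PSMB6 fell from 162, 155 and 156 CPM to 90.6, 95.2 and 92.3 CPM (-0.68 ± 0.10, adjusted p = 6.64e-07) and PSMB7 from 327, 304 and 331 CPM to 207, 206 and 201 CPM (-0.57 ± 0.09, adjusted p = 1.83e-06). For none of PSMB5, PSMB6 and PSMB7 did the groups overlap.

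PSMC3, an ATPase, had the largest called decrease in this line, from 131, 117 and 125 CPM to 63.3, 46.5 and 54.4 CPM (log2 fold change -1.10 ± 0.13, edgeR adjusted p = 1.44e-09). The chaperones PSMG1 and PSMG3 fell by 0.80 ± 0.20 and 0.75 ± 0.12 on the log2 scale. In the cap, 5 of 6 ATPases and 7 of 11 non-ATPase subunits fell, and PSMC1, PSMD1, PSMD6, PSMD7 and PSMD14 did not pass the test, with log2 fold changes of -0.23 to 0.11. In the alpha ring, 4 of 7 genes fell. Of all tested genes, 36% were called in either direction.

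The inducible genes of MDA-MB-453 were low or did not pass the test. PSMB8 was at 0.584, 3.83 and 3.60 CPM under DMSO, or 2, 14 and 13 counts, and at 0.506, 0 and 1.202 CPM after abemaciclib, or 2, 0 and 4 counts. Its groups overlapped, and its log2 fold change of -2.14 had a 95% interval of -3.97 to -0.30 (edgeR adjusted p = 0.0630). The call changed with the setting: the adjusted p was 0.0130 with all 24 libraries in the fit, 0.0345 without DMSO replicate 1 and 0.0420 without abemaciclib replicate 3. PSMB9 had 0, 2 and 2 counts under DMSO and 0 in each abemaciclib library, and was not tested within this line. PSME1 was at 163, 145 and 162 CPM under DMSO and 139, 149 and 128 CPM after abemaciclib (log2 fold change -0.10, 95% interval -0.31 to 0.11, edgeR adjusted p = 0.514), with overlapping groups. PSME2 went from 65.2, 57.2 and 60.1 CPM to 49.6, 49.3 and 36.4 CPM without overlap, but was not called (log2 fold change -0.35, 95% interval -0.64 to -0.05, edgeR adjusted p = 0.0574), though it passed with all 24 libraries in the fit (0.0447) or without abemaciclib replicate 2 (0.0417). PSME3 overlapped between groups at 58.4, 62.7 and 64.3 CPM and 67.1, 52.0 and 39.1 CPM (log2 fold change -0.15, edgeR adjusted p = 0.473), and its sign changed without abemaciclib replicate 3 (0.0075).

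**Figure D3:**
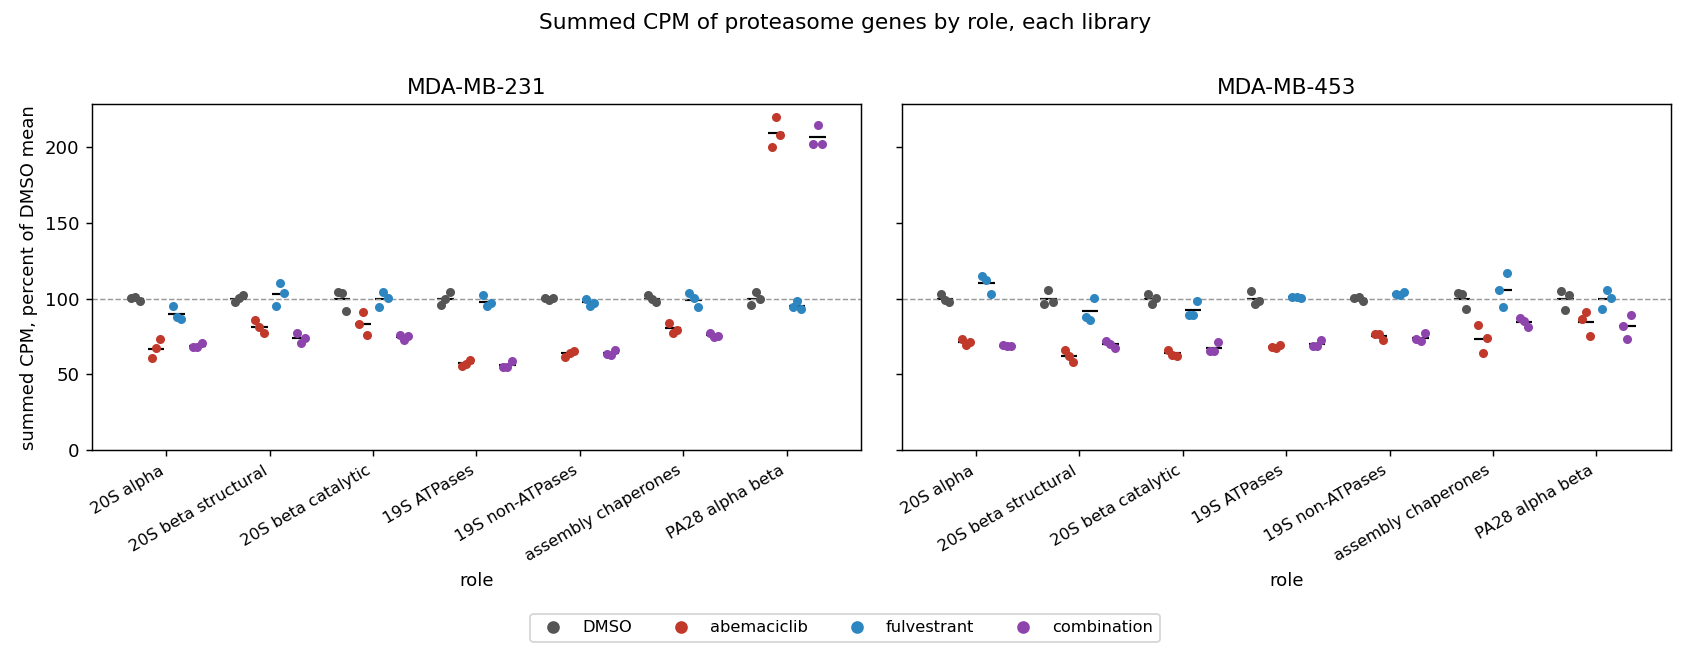
Summed CPM of the proteasome genes of each role in every library, as percent of the mean of the line's DMSO libraries (dashed line at 100), coloured by treatment with the group mean as a short line, in MDA-MB-231 (left) and MDA-MB-453 (right). Abemaciclib and combination libraries lie below 100 for the constitutive core and cap sums in both lines, and above 200 on average for PA28 alpha beta in MDA-MB-231 but below 100 in MDA-MB-453.

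Whether the lines differed in their response was tested directly, as the difference of the abemaciclib effects in a fit of all 24 libraries. Each line had its own culture medium, so line and medium cannot be told apart in this test. Of 45 members, 11 were called, 6 with a lower and 5 with a higher log2 fold change in MDA-MB-453, where 20.7% of 12750 tested genes were called, so that the members' share was near that of all genes. Without MDA-MB-453 abemaciclib replicate 1, 13 were called, 10 of them shared. Of the inducible genes, PSMB8, PSME1 and PSME2 differed. PSMB9 was called too, but it entered this fit through MDA-MB-231 alone, being too scarce in MDA-MB-453 to be tested there. The difference, MDA-MB-453 minus MDA-MB-231, was -1.46 ± 0.15 for PSME1 (edgeR adjusted p = 4.57e-11), -0.84 ± 0.18 for PSME2 (0.000485) and -3.15 ± 0.71 for PSMB8 (0.000773). For PSMB9 the fitted difference of -5.66 ± 1.86 (edgeR adjusted p = 0.0241) depends on how counts of 0 are handled. With 3 counts set for the abemaciclib group of MDA-MB-453, the pooled PSMB9 change was 5.83-fold lower there than in MDA-MB-231. That value takes the 4 DMSO counts of MDA-MB-453 and the MDA-MB-231 change as exact, so it is no lower bound. PSMB9 lost its call without MDA-MB-453 DMSO replicate 2 (adjusted p = 0.0911) or 3 (0.0894).

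Of the constitutive members, PSMB5 and PSMB4, neither called in MDA-MB-231 alone, had a lower log2 fold change in MDA-MB-453, with differences of -0.39 ± 0.13 (edgeR adjusted p = 0.0233) and -0.41 ± 0.15 (0.0400). Cap genes differed in the other direction: PSMC1 by 0.97 ± 0.23 (edgeR adjusted p = 0.00136), PSMD7 by 0.60 ± 0.15 (0.00214), PSMD1 by 0.58 ± 0.16 (0.00485), PSMD14 by 0.57 ± 0.19 (0.0231) and PSMD11 by 0.48 ± 0.14 (0.00956). Several of these calls rested on single libraries. PSMB5 lost its call without MDA-MB-231 abemaciclib replicate 2 (adjusted p = 0.10). PSMB4 lost it without replicate 2 of DMSO or abemaciclib in either line (0.0632 to 0.120). For PSMD1 this happened without MDA-MB-231 abemaciclib replicate 1 (0.0710) or MDA-MB-453 abemaciclib replicate 2 (0.0893). For PSMD11 it happened without replicate 1 of DMSO or abemaciclib in MDA-MB-231 or replicate 3 of either in MDA-MB-453 (0.0523 to 0.180). PSMD14 lost its call without MDA-MB-231 abemaciclib replicate 1, MDA-MB-231 DMSO replicate 1 or 3, any MDA-MB-453 abemaciclib library, or MDA-MB-453 DMSO replicate 1 or 3 (0.0532 to 0.164).

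The 3′ ends of PSMC1 and PSMD7 are each covered at 100% over 500 bases by exons on the opposite strand, those of NRDE2 and of ENSG00000259972. Whether counting used strand is not given in the sources used here, so reads of these pairs may not be told apart; NRDE2 itself had 31 to 129 counts per library.

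The untreated lines already differed. As each line had its own culture medium, line and medium cannot be told apart. Comparing DMSO libraries, 34 of 45 members were called, 11 of them higher and 23 of them lower in the epithelial line, and 69.8% of all tested genes were called. Of the inducible genes, PSMB8 and PSMB9 were lower, with log2 fold changes of -3.55 ± 0.34 (edgeR adjusted p = 4.90e-13) and -3.53 ± 0.72 (3.56e-05). The PSMB9 value is near the floor: it rests on 4 counts over the MDA-MB-453 DMSO libraries, against 49 in MDA-MB-231. PSMB9 also entered this fit through MDA-MB-231 alone, being too scarce in MDA-MB-453 to be tested there, so its p is no independent support. PSME1 was higher (0.75 ± 0.11, edgeR adjusted p = 2.48e-08), and PSME2 was not called. PSME3 and PSME4 were lower in MDA-MB-453, with log2 fold changes of -2.18 ± 0.12 and -1.71 ± 0.12. PSMC5 had the largest positive value, 1.31 ± 0.10 (edgeR adjusted p = 9.98e-17), and the chaperones PSMD5 (1.06 ± 0.15) and PSMG3 (0.71 ± 0.12) were higher too. PSMB6 and PSMB5 were lower (-1.21 ± 0.10 and -0.59 ± 0.09), and PSMB7 was called only without MDA-MB-231 DMSO replicate 3 (adjusted p = 0.0358). The chaperone PSMD9 had a value of -1.61 ± 0.38 and PSMA5, of the alpha ring, -1.52 ± 0.14.

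Fulvestrant alone moved few proteasome genes. In MDA-MB-231, edgeR called 0 of 45 members and 0% of all tested genes, with 3 members at an unadjusted p below 0.05; DESeq2 also called 0. Without fulvestrant replicate 1, which stood apart, 2 members were called lower, a count given without the share of all genes called in that setting. The member log2 fold changes ran from -0.82 to 0.36 with a median of 0.0067. PSMB8 was at 37.8, 40.4 and 28.1 CPM, PSMB9 at 5.20, 3.98 and 3.80 CPM, PSME1 at 91.8, 94.6 and 89.4 CPM and PSME2 at 69.0, 72.7 and 69.0 CPM. The fulvestrant and DMSO ranges overlapped for PSMB8, PSMB9, PSME1 and PSME2.

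In MDA-MB-453, 2 of 44 members rose with fulvestrant and 0 fell, where 1.41% of tested genes were called and 10 members were at an unadjusted p below 0.05. PSMC1 was at 227, 220 and 215 CPM under DMSO and at 349, 367 and 239 CPM with fulvestrant (log2 fold change 0.47 ± 0.13, edgeR adjusted p = 0.0441). PSMD7 went from 125, 133 and 120 CPM to 169, 185 and 162 CPM (0.39 ± 0.10, edgeR adjusted p = 0.0395). Both are the cap genes whose ends overlap an opposite-strand gene. Neither was called with all 24 libraries in 1 fit (adjusted p of 0.191 and 0.0909), and both calls were lost without any 1 of the 3 DMSO libraries or without fulvestrant replicate 1 or 2 (0.132 to 0.414 for PSMC1, 0.103 to 0.353 for PSMD7). DESeq2 called 3 members, 1 higher and 2 lower, and 1 of them was shared with edgeR. PSMC1 was lowest in fulvestrant replicate 3, the library that stood apart. Without it, both genes stayed called among 5 members, 2 higher and 3 lower.

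The combination was compared with DMSO, with abemaciclib and with fulvestrant, and these comparisons share libraries with those above. In MDA-MB-231 the combination raised 5 members and lowered 36 of 45, where 35.4% of all tested genes were called. PSMB8 was at 76.0, 83.9 and 66.0 CPM (log2 fold change against DMSO 1.16 ± 0.15, edgeR adjusted p = 6.45e-08). PSMB9 was at 17.0, 20.7 and 15.5 CPM (1.84 ± 0.34, adjusted p = 3.07e-05), PSME1 at 245, 266 and 241 CPM (1.36 ± 0.10, adjusted p = 6.05e-14) and PSME2 at 99.2, 99.3 and 103 CPM (0.46 ± 0.12, adjusted p = 0.00191). For each of these genes, no combination library overlapped DMSO.

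PSMG4 also rose with the combination, by 0.90 ± 0.19 (edgeR adjusted p = 0.000138). Catalytic core genes fell in all 3 cases, PSMB5 by 0.27, PSMB6 by 0.60 and PSMB7 by 0.44 on the log2 scale, and PSME3 fell by 0.60. The PSMB5 call (adjusted p = 0.0201) was lost without DMSO replicate 1 or 2 or combination replicate 3, where the adjusted p was 0.0729, 0.0952 and 0.0670. PSMG1 had the largest decrease, a log2 fold change of -1.18 ± 0.13 (adjusted p = 1.30e-09), with PSMD11 at -1.13 ± 0.10 and PSMD9 at -0.99 ± 0.33. Without DMSO replicate 3 or combination replicate 3 the PSMD9 call was lost (adjusted p of 0.109 and 0.0684). The share of counts over all members was 0.704% ± 0.0114 (SD, n = 3).

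Few members differed between the combination and abemaciclib. In MDA-MB-231, edgeR called 0 of 45 members between combination and abemaciclib, against 0.0265% of all tested genes, with 4 members at an unadjusted p below 0.05 and 0 called by DESeq2 among 24 it tested. The log2 fold changes ran from -0.31 to 0.27. The interaction of both drugs called 0 members in edgeR, against 0.124% of tested genes, with 3 at an unadjusted p below 0.05 and 1 called by DESeq2. Without fulvestrant replicate 1 the interaction was called for 2. Against fulvestrant alone, the combination raised 5 and lowered 34 of 45 members, at a background of 36.1%, and 5 and 33 without fulvestrant replicate 1. PSMB9 (2.01 ± 0.34), PSME1 (1.44 ± 0.11) and PSMG4 (1.17 ± 0.19) had the highest log2 fold changes there, and PSMG1 (-1.12 ± 0.13), PSMD11 (-1.05 ± 0.10) and PSMC4 (-0.98 ± 0.10) the lowest. PSMB8 (1.08 ± 0.15) and PSME2 (0.51 ± 0.12) rose as well.

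**Figure D4:**
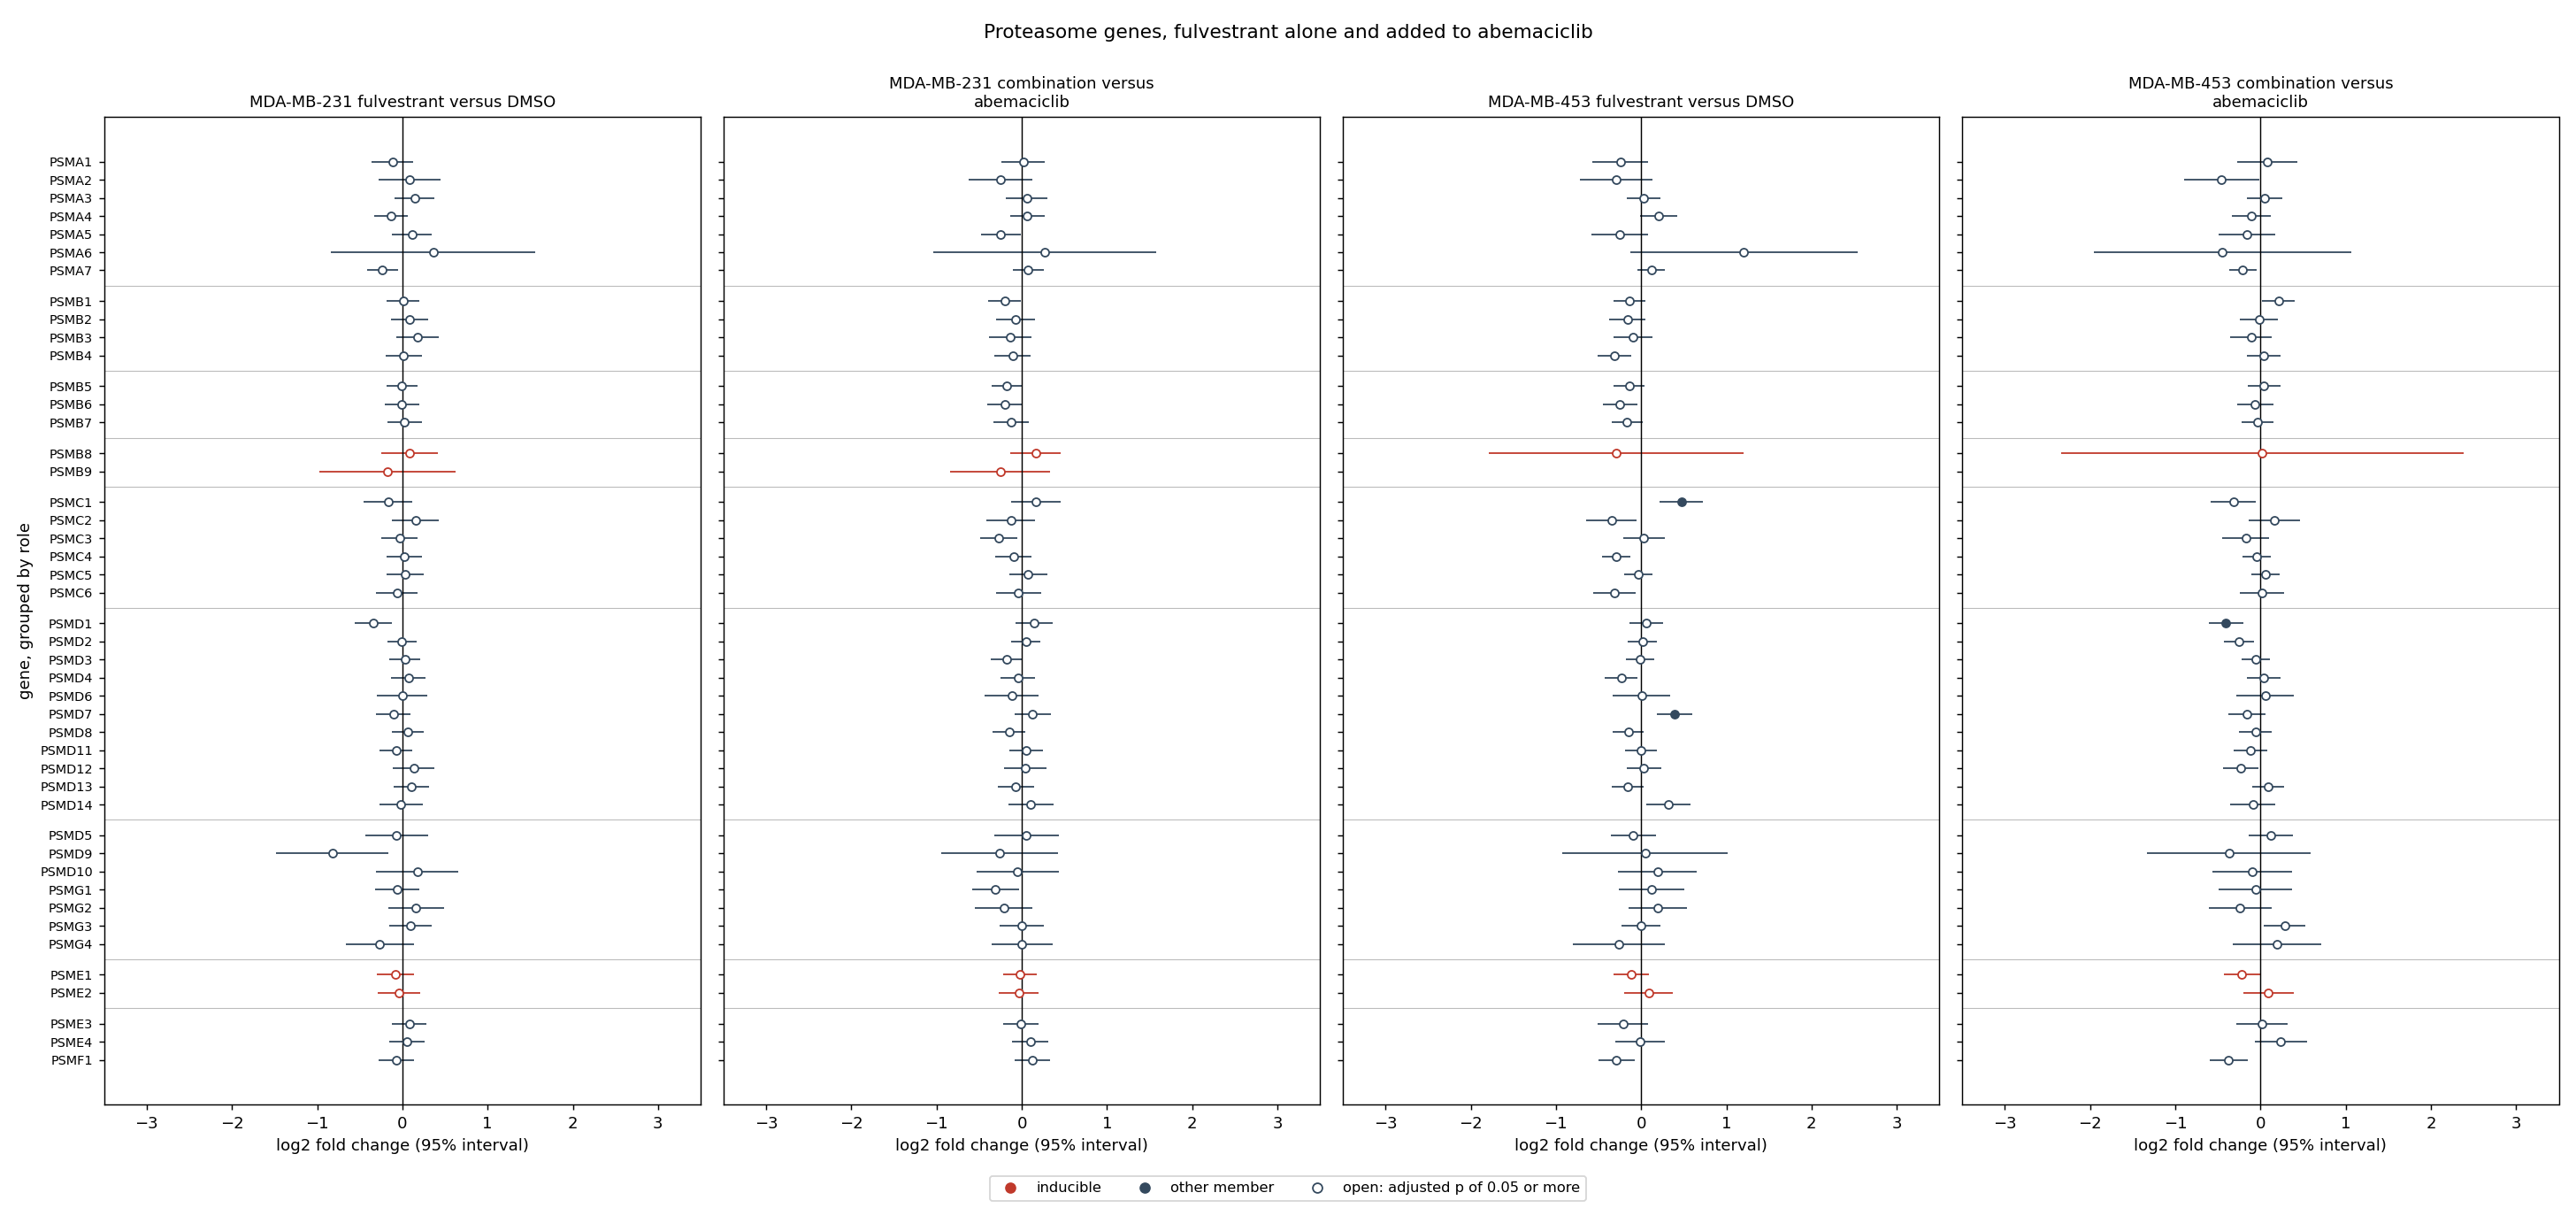
Log2 fold change of each tested proteasome gene with its 95% interval for fulvestrant versus DMSO and for the combination versus abemaciclib, in MDA-MB-231 (left pair) and MDA-MB-453 (right pair), with filled points called at an adjusted p below 0.05. No point is filled in MDA-MB-231; in MDA-MB-453 the filled points are PSMC1 and PSMD7 for fulvestrant and PSMD1 for the combination.

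In MDA-MB-453 the combination lowered 30 of 44 members and raised 0 against DMSO, with 37.6% of tested genes called. PSMC3 (log2 fold change -1.27 ± 0.13, edgeR adjusted p = 4.32e-11), PSMG1 (-0.86 ± 0.20) and PSMD11 (-0.83 ± 0.10) fell most. PSMB5, PSMB6 and PSMB7 fell by 0.45, 0.74 and 0.60 on the log2 scale. PSME1 was at 125, 113 and 141 CPM and was called lower than DMSO (-0.32 ± 0.11, edgeR adjusted p = 0.0151), but not without combination replicate 2 (adjusted p = 0.124) or DMSO replicate 1 (0.0565) or 3 (0.0740). PSME2, at 53.2, 47.5 and 52.9 CPM, was not called (edgeR adjusted p = 0.168), and PSMB8 was at 1.04, 0.869 and 0 CPM (adjusted p = 0.0633, but 0.0121 with all 24 libraries in the fit and 0.0350 without DMSO replicate 1).

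Against abemaciclib, the combination lowered PSMD1, a scaffold subunit of the cap, in MDA-MB-453: 181, 226 and 181 CPM became 159, 145 and 170 CPM (log2 fold change -0.40 ± 0.10, edgeR adjusted p = 0.0188). It was the single member called of 44, where 2.46% of tested genes were called, and the call was lost without abemaciclib replicate 2 (adjusted p = 0.252) or combination replicate 1 (0.0685) or 2 (0.181). Without abemaciclib replicate 1, which stood apart, PSMD1 stayed called among 4 members. The interaction of both drugs was called for PSMC1 (-0.79 ± 0.18, edgeR adjusted p = 0.00758) and PSMD7 (-0.55 ± 0.15, 0.0259), where 3.8% of tested genes were called. These are the genes higher with fulvestrant alone, and the same fulvestrant libraries enter both. PSMC1 was not called with all 24 libraries in the fit (adjusted p = 0.0528) or by DESeq2 (0.0959), and PSMD7 not without DMSO replicate 1 or 3, abemaciclib replicate 3, fulvestrant replicate 2 or combination replicate 2 (0.0629 to 0.112). Both stayed called without abemaciclib replicate 1 or fulvestrant replicate 3, among 4 and 6 members. Against fulvestrant, the combination lowered 24 of 44 members and raised 0 (background 36.6%), or 23 and 1 without fulvestrant replicate 3, with PSMC3 (-1.31 ± 0.13), PSMG1 (-0.98 ± 0.20) and PSMD11 (-0.83 ± 0.10) lowest.

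Between lines, the combination effect differed for 7 members, 2 higher and 5 lower in MDA-MB-453, a share no larger than the 17.7% of all tested genes called. PSME1 (-1.68 ± 0.15, edgeR adjusted p = 8.53e-13), PSMB8 (-3.32 ± 0.71, 0.000413), PSME2 (-0.73 ± 0.18, 0.00245) and PSMB9 (-5.41 ± 1.86, 0.0359) were lower. With 3 counts set for the MDA-MB-453 combination group, the PSMB9 change was 4.64-fold lower. This value too takes the other groups' counts as exact and is no lower bound, and PSMB9 was not tested within MDA-MB-453. PSMB9 lost its call without any 1 of the MDA-MB-453 combination libraries or DMSO replicate 2 or 3 of that line (0.0605 to 0.116). PSMF1, the proteasome inhibitor, was lower (-0.63 ± 0.15, edgeR adjusted p = 0.00116), and the cap genes PSMD6 (0.74 ± 0.23, 0.0166) and PSMD3 (0.38 ± 0.13, 0.0277) were higher. The PSMD6 call was lost without MDA-MB-231 DMSO or combination replicate 1 or 2, MDA-MB-453 DMSO replicate 1 or MDA-MB-453 combination replicate 3 (0.0538 to 0.103). The PSMD3 call held only without MDA-MB-231 combination replicate 3, MDA-MB-453 DMSO replicate 2 or MDA-MB-453 combination replicate 2, and was lost without any other DMSO or combination library (0.0515 to 0.201).

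Partners of the proteasome outside the PSM names were counted by the same test, in which abemaciclib called 33.7% of all tested genes in the mesenchymal line and 36% in the epithelial one. Of the partner and the ubiquitin genes, 30.8% to 46.2% were called, a share not far from that of all genes. Of 11 partners, 4 fell and 0 rose with abemaciclib in MDA-MB-231, led by the ubiquitin receptor ADRM1 (log2 fold change -0.99) and AKIRIN2, which serves nuclear import of proteasomes (-0.82). The maturation factor POMP fell in both lines, by 0.48 in the mesenchymal and 0.50 in the epithelial one. In MDA-MB-453, 3 partners fell and 2 rose, ZFAND5 (0.76) and UBE3C (0.47). Of 13 ubiquitin and delivery genes, 6 fell in the mesenchymal and 4 in the epithelial line, UFD1 in both (-0.67 and -1.002), and 0 rose in either line. At an unadjusted p below 0.05 there were 7 and 5.

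The NRF1 axis, which drives proteasome gene transcription when proteasome activity is low, was counted next, against the same 33.7% and 36% of all tested genes called. In MDA-MB-231, 3 of 7 tested genes fell with abemaciclib, MAFF (-0.90), NFE2L2 (-0.63) and MAFK (-0.62), and 0 rose. NFE2L2 encodes NRF2 and not NRF1. The NRF1 gene NFE2L1 was not called in this line, nor were DDI2, NGLY1 and MAFG. In MDA-MB-453, 4 of 6 rose, NFE2L1, encoding NRF1 itself (1.06), MAFG (0.59), the activating protease DDI2 (0.58) and MAFK (0.39), and 0 fell. The difference between lines was called for 5 of 7, all higher in MDA-MB-453, where 20.7% of all tested genes were called.

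Class I and peptide-loading genes were counted in the same way, again beside 33.7% and 36% of all tested genes. In MDA-MB-231, 6 of 11 rose with abemaciclib, led by HLA-B (1.38), HLA-C (1.32), HLA-E (1.17) and the peptide-loading chaperone tapasin, TAPBP (1.06), and TAP2, a subunit of the peptide transporter, fell (-0.51). In MDA-MB-453, 2 of 11 rose, PDIA3 (0.94) and TAPBP (0.33), and 3 fell, among them TAP2 (-0.99) and HLA-C (-0.76). HLA genes are similar in sequence, and reads between them may be shared. Of 10 tested interferon regulators in MDA-MB-231, 1 rose, IRF9 (1.28), and 0 fell; in MDA-MB-453, IFNGR1 (1.55) and IRF2 (0.89) rose.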

How the data were processed

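RNA from the 24 cultures was sequenced by the authors as QuantSeq 3′ libraries. According to the methods and processing notes, reads were trimmed with BBDuk (version 38.90), aligned to hg38 with STAR (2.7.5b) and counted per GENCODE 35 gene with featureCounts (Subread 2.0.1). The deposited values are raw counts per gene. Strand, multimapping and duplicate handling are not given in the sources used here. The study describes 3 independent biological replicates per group.

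Counts were tested with edgeR 4.0.16 in R 4.3.3 (TMM factors, its default expression filter, quasi-likelihood test) within the 12 libraries of each line, and over all 24 for comparisons between lines. Values of p were adjusted by the Benjamini-Hochberg method over all tested genes, with a threshold of 0.05. CPM used total counts. The fit was tested on simulated data. Alternatives were DESeq2 1.42.0, other scaling, filters and sample sets, a replicate block and leaving out each library. Named throughout were the inducible genes with PSMB5, PSMB6, PSMB7 and PSME3, and in each comparison the 3 other called members with the largest change in each direction, or all called if 6 or fewer. Outside genes were up to 4 called per list with the largest changes; other genes were named after their values were seen. The members and lists were chosen with earlier results of these data known. Promoters came from RefSeq GRCh38.p14 and overlaps from GENCODE v44. Some genes of the outside and marker lists and 1 promoter pattern are not reported here.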

Additional observations from a re-analysis of the deposited data

Results flagged for a closer look

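The abemaciclib effect differed between the lines for 11 proteasome genes in the edgeR test of the difference, MDA-MB-453 minus MDA-MB-231 on the log2 scale. That is 11 of 45 tested members, near the 20.7% of all tested genes called. The inducible genes were PSMB8 (-3.15), PSME1 (-1.46), PSME2 (-0.84) and PSMB9 (-5.66, a fit against libraries at 0). PSMB9 was too scarce in MDA-MB-453 to be tested within that line. The core genes were PSMB4 (-0.41) and PSMB5 (-0.39). The cap genes were PSMC1 (0.97), PSMD1 (0.58), PSMD7 (0.60), PSMD11 (0.48) and PSMD14 (0.57).

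The combination effect differed likewise for 7 of 45 members, against 17.7% of all tested genes called. They were PSMB8 (-3.32), PSMB9 (-5.41, again a fit against libraries at 0), PSME1 (-1.68), PSME2 (-0.73), PSMF1 (-0.63), PSMD3 (0.38) and PSMD6 (0.74). In MDA-MB-453 the response to fulvestrant differed with and without abemaciclib for PSMC1 (interaction -0.79) and PSMD7 (-0.55). They were 2 of 44 tested members, near the 3.8% of all tested genes called. The PSMC1 call was lost with all 24 libraries in the fit and by DESeq2. That of PSMD7 was lost when any 1 of several libraries was left out. The ends of both genes overlap a gene on the opposite strand. The causes of these differences were not tested, and between lines the culture medium differed too.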

How the results depend on the processing

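Of 110 single gene results, 89 were called, and 69 of these kept their call and direction under all alternatives run. A call was lost under at least 1 alternative for 20, a call was gained for 9, and no called result changed sign. PSME3 in MDA-MB-453 after abemaciclib, which was not called, changed sign without abemaciclib replicate 3 (0.0075); with each library left out it ran from -0.33 to 0.0075. After the values were seen, uncalled core genes in the fulvestrant versus DMSO, combination versus abemaciclib and interaction comparisons were left out as single results. Of those 45 values, 19 changed sign under at least 1 alternative and 0 were called under any.

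Counts of called members moved by over 1.5 times as follows. The share of all genes called in the same settings is not set beside them. For fulvestrant in MDA-MB-453 (2 called), all 24 libraries in 1 model gave 0, the replicate block gave 0, and leaving out each library gave 0 to 5. For the combination versus abemaciclib in MDA-MB-453 (1 called), all 24 libraries or DESeq2 size factors gave 2, the DESeq2 test or no filter gave 3, and leaving out each library gave 0 to 4. For the interaction in MDA-MB-453 (2 called), all 24 libraries gave 1 and leaving out each library gave 1 to 6. In MDA-MB-231, fulvestrant (0 called) gave 0 to 2 with each library left out, and the interaction (0 called) gave 1 by DESeq2 and 0 to 2 with each library left out. The 2 came without fulvestrant replicate 1 in both cases.

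The other counts stayed within 1.5 times. With each library left out they ran from 31 to 36 (abemaciclib) and 36 to 38 (combination against DMSO) in MDA-MB-231, while MDA-MB-453 had from 22 to 28 and 25 to 27. The log2 change of the summed CPM of all members after abemaciclib, -0.48 in the mesenchymal and -0.50 in the epithelial line, was -0.42 and -0.34 with mitochondrial counts left out, and -0.41 in MDA-MB-453 with TMM factors. That of the catalytic subunits in MDA-MB-453, -0.65, was -0.49 and -0.56. Except as named, the cause of these shifts was not tested.

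Equal replicate numbers did not pair the libraries: none of 18 same-number correlations per line passed 0.1, and 3 and 4 of 12 libraries correlated best with their own number. Precision was limited by counts for PSMB8 and PSMB9 in MDA-MB-453, PSMB10 and PSMA6.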
